A study of Vitis vinifera with 8 samples.

Results

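The XLOC loci are the grapevine loci whose identifiers on a custom Agilent array start with XLOC_. They were chosen by that prefix alone among the probes other than controls, which gave 4392 loci of 34369 probes. Each locus had 1 probe, each probe was printed once, and the numbers in the identifiers ran from 10 to 21972. The 29798 probes with VIT_ identifiers served as the background, and 179 probes with other identifiers entered the fit and no other comparison. RNA came from young leaves of in vitro plantlets of Vitis vinifera cv. Sultana, 6 weeks old per the labels. The plantlets were vacuum infiltrated with Agrobacterium tumefaciens strain C58C1 and harvested 7 days later. For the infiltration the methods give a lower age than the labels. The OXNAC33 group (4 arrays) received 35S:VviNAC33, in which the CaMV 35S promoter drives the NAC transcription factor gene VviNAC33. The Control group (4 arrays) received the vector pK7WG2 with a non-coding sequence, so that both groups carried the bacterium and the vector. Each array held RNA of 1 plant, pooled from its apical leaves. Transformation was transient, 8 plants were infiltrated for OXNAC33 and 7 for Control. According to the methods, the plants hybridized for OXNAC33 were picked for high transgene expression.

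VIT identifiers name genes of the annotated grapevine genome. The prefix XLOC is the one that the Cufflinks assembler gives to loci built from RNA-seq reads, and loci of this kind can be unannotated protein-coding genes, non-coding RNAs or unannotated stretches of known transcripts. Transcripts outside an annotation are in general known for low levels and for expression in few tissues or conditions. The sources used here do not say how the XLOC loci of this array were built. Their positions, their neighbouring genes and their probe sequences were not analysed here, so that no locus could be assigned a function, and whether they lie beside annotated genes was not tested.

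On each array between 73.8% and 84.1% of all probes were marked well above background by the scanner software, and the 75th percentile of the processed signal lay between 1370 and 2767. Arrays were scanned on 3 dates, with replicates 1 and 2 of both groups on date 1, replicate 3 of both on date 2 and replicate 4 of both on date 3. Control replicates 1 and 2 stood apart in the share of marked probes and in its lower limit. Levels are given on a log2 scale relative to the 75th percentile of each array, so that a level of 0 is a signal at that percentile. The transgene's own gene VviNAC33 averaged 0.12 ± 0.98 in OXNAC33 and -0.78 ± 0.67 in Control (SD, n = 4 each). Probes of the leaf genes LHCB3, PSAO, PsbP and LHCA5, which encode photosystem and light-harvesting proteins, were well above background on 8 of 8 arrays, as was that of a seed oleosin at -3.68 ± 0.34 in OXNAC33 and -3.34 ± 0.12 in Control.

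Fewer XLOC loci than VIT genes gave a signal in these leaves. In OXNAC33 replicates 1 to 4, 50.6%, 49.6%, 46.5% and 44.5% of the XLOC loci were well above background, against 81.2%, 80.7%, 79.2% and 78.6% of the VIT genes. In Control replicates 1 to 4 the shares were 65.1%, 66.2%, 44.0% and 43.7% of the XLOC loci, against 86.9%, 86.9%, 78.4% and 78.4% of the VIT genes. The XLOC share was the lower on all 8 arrays. The mean difference was -30.0 percentage points (two-sided exact sign-flip permutation test over 8 arrays, p = 0.0078, the smallest that the design allows), and it was -31.7 points where 1 common level decided on every array. By the looser mark of the software, for a signal positive and significant, it was -16.4 points (exact permutation test, p = 0.0078).

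**Figure D1:**
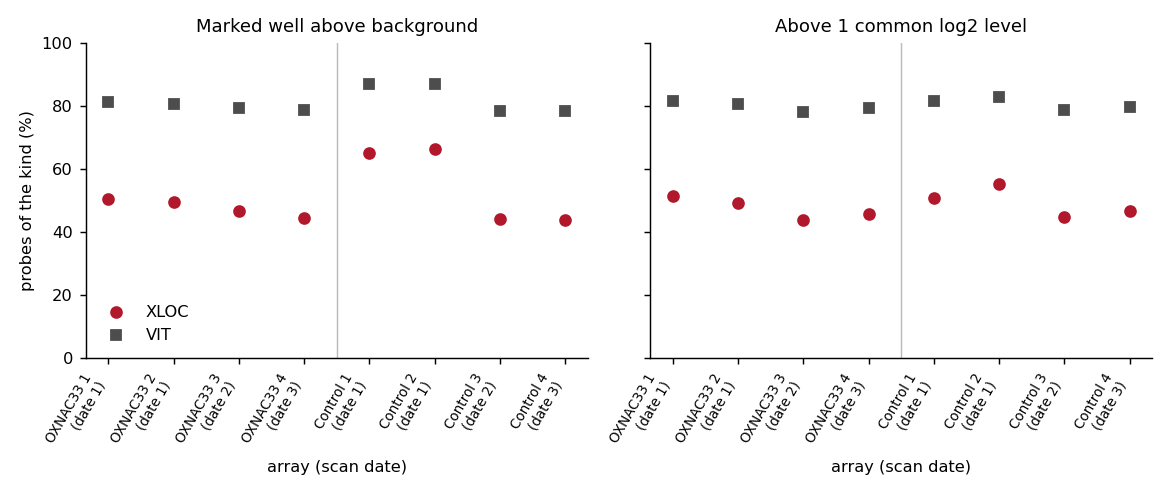
Share of the 4392 XLOC loci and of the 29798 VIT genes (y axis, %) above background on each of the 8 arrays (x axis, with scan date), by the mark of the scanner software (left) and above 1 common level of -6.65 (right). The XLOC points lie below the VIT points on every array, and Control replicates 1 and 2 reach 65.1% and 66.2% by the mark but 50.9% and 55.2% at the common level.

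Most XLOC loci were seen either on every array or on none. All 8 arrays marked 1645 XLOC loci (37.5%), against 22196 VIT genes (74.5%), and 0 arrays marked 1208 XLOC loci (27.5%), against 2960 VIT genes (9.93%). Between 1 and 7 arrays marked the remaining XLOC loci, with 403 loci on 1 array, 388 on 2 arrays and 106 to 167 in each class from 3 to 7 arrays. Of the 388 loci on 2 arrays, 309 (7.04% of all XLOC loci) were marked on Control replicates 1 and 2 and nowhere else, a pattern that 720 VIT genes (2.42%) also had.

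Between the groups, the share of XLOC loci well above background averaged 47.8% ± 2.79 in OXNAC33 and 54.8% ± 12.6 in Control (SD, n = 4 each). The OXNAC33 values lay inside the range of the Control values, and the difference of -6.96 points was smaller than the spread between Control plants (two-sided exact permutation test, p = 0.429). Within scan dates 1, 2 and 3 it was -15.6, 2.48 and 0.82 points, and without Control replicates 1 and 2 it was 3.94 points (exact permutation test, p = 0.133). The lowest level marked well above background was -7.97 and -7.57 on those 2 arrays and between -7.17 and -6.65 on the other 6. On dates 1 and 2 the groups lay on separate slides, so that slide and group cannot be told apart there, and on date 3 they shared a slide. Above the common level of -6.65 the XLOC share averaged 47.6% ± 3.42 in OXNAC33 and 49.4% ± 4.70 in Control (SD, n = 4 each; difference -1.76 points, exact permutation test, p = 0.514). In whole leaves, fewer cells with a transcript and less of it per cell cannot be told apart.

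The signal of the XLOC loci was also lower as a whole. Their median level ranged from -7.16 to -6.33 over the 8 arrays, with a mean of -6.80, against a range of -2.38 to -2.11 and a mean of -2.21 for the VIT genes. The XLOC median was below the VIT median on all 8 arrays, with a mean difference of -4.59 on the log2 scale (two-sided exact sign-flip permutation test, p = 0.0078, the smallest possible). Among spots well above background alone the difference was -3.48, and with normexp background correction it was -2.30 (exact permutation test, p = 0.0078 for both). A signal over the array's 75th percentile was reached by 1.86% ± 0.223 of the XLOC loci and by 28.5% ± 0.0338 of the VIT genes (SD over 8 arrays). The 95th percentile of the levels averaged -1.52 for the XLOC loci and 2.85 for the VIT genes. Signal depends on the probe as well as on the transcript, so that these are distributions over many probes and not amounts of RNA.

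**Figure D2:**
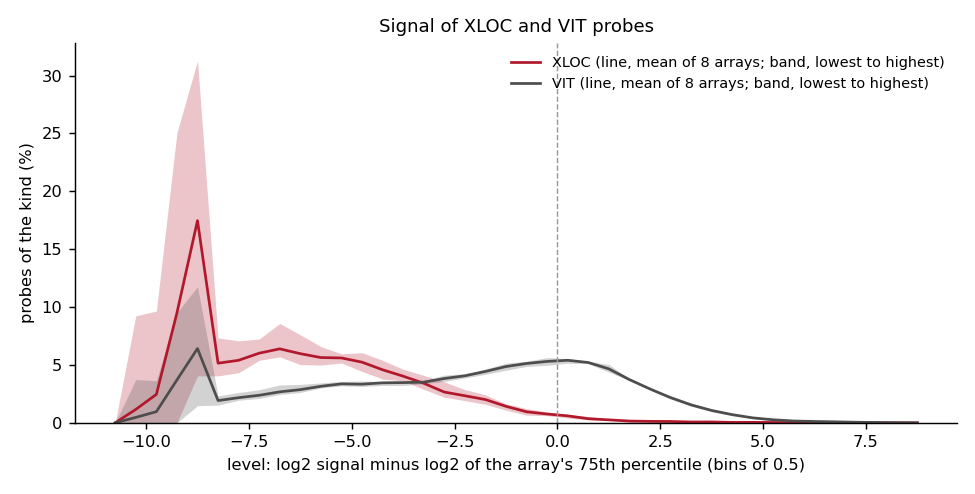
Percentage of XLOC and VIT probes (y axis) in each bin of 0.5 of the level (x axis, log2 relative to the array's 75th percentile), as the mean of 8 arrays with a band from the lowest to the highest array. The XLOC curve peaks at the dim end, where values include the estimates that the scanner software put in place of small signals, and lies below the VIT curve over the bright range, with 1.86% of XLOC loci and 28.5% of VIT genes above 0.

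A few XLOC loci were nonetheless among the brightest probes of the array. XLOC_020970 stood at the 99.9th percentile of all probes by mean level, with 6.52, 6.59, 6.74 and 6.67 in OXNAC33 replicates 1 to 4 and 5.71, 6.05, 6.76 and 7.11 in Control replicates 1 to 4. Its OXNAC33 values all lay inside the Control range. XLOC_005022 had levels of 4.74 to 5.52 in OXNAC33 and 4.97 to 5.52 in Control, and XLOC_014352 had 3.58 to 4.35 in OXNAC33 and 4.19 to 4.71 in Control. For both of these the groups overlapped as well. XLOC_006267 had 5.14, 5.12, 4.99 and 5.23 in OXNAC33 and 4.68, 4.93, 4.94 and 4.67 in Control, 2 ranges that did not overlap. The difference for XLOC_006267 was 0.31 (SE 0.15, limma, adjusted p = 0.638), and the locus with the next number, XLOC_006268, had 1.52 to 2.38 in OXNAC33 and 1.05 to 1.82 in Control. XLOC_020504 averaged 3.94 ± 0.48 in OXNAC33 and 4.76 ± 0.64 in Control (SD, n = 4 each), with overlap between the groups and an adjusted p of 0.633 by limma.

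Replicate plants differed slightly more at XLOC loci than at VIT genes. The 2227 XLOC loci and 24273 VIT genes with 4 or more arrays well above background were used for this and for all tests between groups, which is 50.7% of the XLOC loci and 81.5% of the VIT genes. The median SD between plants was 0.41 in OXNAC33 and 0.44 in Control for the XLOC loci, against 0.35 in OXNAC33 and 0.36 in Control for the VIT genes. The median absolute deviation from the group mean was larger for the XLOC loci on all 8 arrays, by 0.06 on average (two-sided exact sign-flip permutation test, p = 0.0078, the smallest possible). Dim probes spread more, and at a like level the order was not kept. Below a mean level of -6 the median SD within a group was 0.58 for XLOC and 0.63 for VIT. It was 0.46 for XLOC and 0.48 for VIT from -6 to -4, and 0.38 for XLOC and 0.43 for VIT from -4 to -2. The XLOC value was the higher only from -2 to 0, with 0.37 for XLOC and 0.33 for VIT, and above 0 the values were 0.30 for XLOC and 0.31 for VIT. The excess was 0.02 with scan date removed. No p-value is given for that value, since each group had a single array on each of the later scan dates. With date removed, the deviations of such paired arrays mirror each other and are not independent. The excess was no longer past the threshold after quantile normalization between arrays (0.02, exact permutation test, p = 0.109) or with normexp background correction (0.10, exact permutation test, p = 0.234).

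Some single XLOC loci varied widely between plants. XLOC_002946, the locus with the widest spread among Control plants, had levels of 0.40, -0.98, -1.79 and 3.96 in OXNAC33 replicates 1 to 4 and -3.83, 4.80, -2.99 and -1.21 in Control replicates 1 to 4. One plant of each group, OXNAC33 replicate 4 and Control replicate 2, was thus far above the others. The locus with the next number, XLOC_002947, was also highest in those 2 plants within each group, with -5.21 in OXNAC33 replicate 4 against -6.50 to -5.76 in the other OXNAC33 plants, and with -3.89 in Control replicate 2 against -5.94 to -5.55 in the other Control plants. XLOC_016744 had -3.22, -3.28, -4.61 and -4.43 in OXNAC33 and -0.21, -0.69, -4.67 and -4.41 in Control. Here the Control plants of scan date 1 stood apart, whereas on dates 2 and 3 the groups differed by 0.05 and -0.01. XLOC_003070 had -2.74, -2.69, -4.91 and -2.47 in OXNAC33 and -0.49, -0.96, -5.76 and -3.74 in Control, with replicate 3 the lowest plant of both groups. XLOC_017887 ranged from -3.67 to -1.80 in OXNAC33 and from -6.27 to -1.23 in Control. All 4 loci were well above background on all 8 arrays and overlapped between the groups (limma, adjusted p between 0.72 and 0.981).

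In the XLOC levels the first principal component set scan date 1 apart, and the second parted the groups by a narrow gap. On the first principal component of the tested XLOC loci, which held 45.5% of the variance, the arrays of date 1 scored between 12.03 and 25.2 and those of dates 2 and 3 between -22.5 and -8.41. On the second, with 17.6% of the variance, the OXNAC33 arrays scored between -15.2 and -3.31 and the Control arrays between -0.883 and 16.6. The second component of the VIT genes (24.3%) did not part the groups. There OXNAC33 replicate 4 scored 18.1, inside the Control range of 12.9 to 71.6. On dates 1 and 2 the groups lay on separate slides, so that slide and group cannot be told apart there. In a limma model with group and scan date, scan date passed an adjusted p of 0.05 for 245 XLOC loci (11.0%), against 1775 VIT genes (7.31%) and 7.61% of all probes tested. Relative to the mean of the Control arrays, the median XLOC level was 0.39, 0.25, -0.18 and -0.03 in OXNAC33 replicates 1 to 4 and 0.03, 0.28, -0.20 and -0.10 in Control replicates 1 to 4. For the VIT genes as a whole these values stayed between -0.02 and 0.08 on all 8 arrays. The dim VIT genes, with a mean level at or below -4, moved in the same way as the XLOC loci. Their values were 0.24, 0.15, -0.22 and -0.14 in OXNAC33 replicates 1 to 4 and 0.09, 0.21, -0.21 and -0.10 in Control replicates 1 to 4. For the XLOC loci at or below -4 they were 0.36, 0.20, -0.29 and -0.13 in OXNAC33 and 0.11, 0.34, -0.26 and -0.14 in Control.

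No XLOC locus differed between OXNAC33 and Control after adjustment over all 26579 probes tested (limma, adjusted p under 0.05, 0 loci, background 0.0%), and no XLOC locus had an adjusted p below 0.392. Before adjustment, limma gave 217 XLOC loci with p under 0.05 (9.74%, background 7.79%). Of these, 148 were higher and 69 lower in OXNAC33, beside 1055 higher and 1016 lower among all probes. The methods' t-test gave 214 XLOC loci (9.61%, background 7.58%), of which 0 passed the adjustment. With at least 1.5 fold in addition, the threshold of the methods, 68 XLOC loci were higher in OXNAC33 (3.05%, background 2.42%) and 53 were lower (2.38%, background 3.1%). The groups did not overlap at 75 XLOC loci with higher values in OXNAC33 (3.37%, background 2.37%) and at 37 with lower values (1.66%, background 1.75%). The XLOC shares thus lay near those of all probes, with somewhat more loci on the higher side and fewer on the lower side.

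The counts past the methods' threshold moved with single plants, for the XLOC loci as for all probes. The 68 higher loci became 28, 35, 169 and 105 when OXNAC33 replicate 1, 2, 3 or 4 was left out in turn (all probes 644, becoming 330, 394, 1280 and 1089). They became 44 when Control replicate 1 was left out and 108 when Control replicate 2 was (all probes 704 and 596). The 53 lower loci became 122 without Control replicate 3 and 90 in a fit blocked on replicate (all probes 824, becoming 1182 and 1318). The median difference over the tested XLOC loci was 0.09, beside 0.03 for the VIT genes and 0.04 for all probes tested, and it was 0.16, 0.04 and 0.04 within scan dates 1, 2 and 3. Values above 0 were found at 59.5% of the XLOC loci and at 54.7% of all probes tested. With normexp background correction the XLOC median was -0.12 and that of all probes -0.05, so that the direction over the whole list depended on how the background was treated.

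Higher and lower values were balanced differently in brighter and dimmer XLOC loci. Among the 847 tested XLOC loci with a mean level above -4, 44 passed the methods' threshold with higher values in OXNAC33 (5.19%) and 14 with lower values (1.65%). Among the VIT genes of that range, 2.10% were higher and 2.62% lower. Among the 1380 dimmer XLOC loci, 24 were higher (1.74%) and 39 lower (2.83%), against 3.29% higher and 5.05% lower among the VIT genes of that range. The median difference of the brighter XLOC loci was 0.20, beside 0.04 for the VIT genes, and it was 0.30, 0.07 and 0.14 within scan dates 1, 2 and 3. Relative to the Control mean, these loci had medians of 0.42, 0.30, 0.00 and 0.11 in OXNAC33 replicates 1 to 4 and -0.07, 0.19, -0.08 and -0.04 in Control replicates 1 to 4. OXNAC33 replicates 1 and 2 lay above the Control range, and OXNAC33 replicates 3 and 4 lay inside it. The count of brighter XLOC loci was 20 higher and 10 lower without OXNAC33 replicate 1. With normexp it was 10 higher and 18 lower, and the median was 0.05. Among the 18803 VIT genes of that range it was 192 higher and 292 lower without OXNAC33 replicate 1. With normexp it was 273 higher and 505 lower for these VIT genes, so that lower values outnumbered higher ones in both kinds. The split at -4 was chosen after the values had been seen, and the difference between XLOC loci and VIT genes in this balance was not tested.

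**Figure D3:**
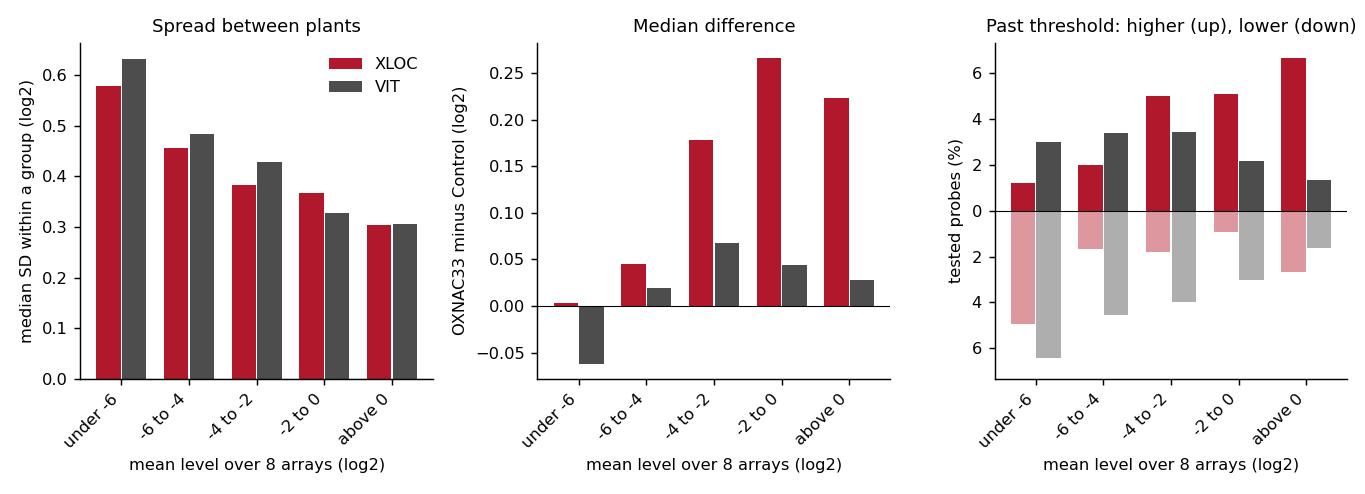
Median SD between plants of a group (left), median difference OXNAC33 minus Control (middle) and percentage of probes past an unadjusted p of 0.05 with at least 1.5 fold (right, higher in OXNAC33 above the line and lower below it) for XLOC and VIT probes in 5 bins of the mean level (x axis, log2). The median SD is highest in the dimmest bin for both kinds, and in the 3 bins above -4 the median difference of the XLOC loci is 0.18, 0.27 and 0.22, beside 0.07, 0.04 and 0.03 for the VIT genes.

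Among the loci with higher values in OXNAC33, 23 passed the unadjusted threshold without overlap and with signal in all OXNAC33 plants, and the 6 with the largest differences are given here. How many of all probes passed this rule, in either direction, was not counted, so such a number only states what was chosen from. XLOC_002024 had -2.10, -3.07, -6.02 and -4.20 in OXNAC33 replicates 1 to 4 and -6.37, -7.04, -6.53 and -8.38 in Control replicates 1 to 4. The gap was wide in replicates 1, 2 and 4 and narrow in replicate 3, where it came to 0.52. The difference was 3.24 (SE 0.82, limma, adjusted p = 0.633). Since 2 of the 4 Control arrays were not well above background, it was also taken with such values raised to the lowest marked level of the array, which gave 2.80. XLOC_013542 was the steadiest of the 6, with -3.38, -3.32, -3.57 and -3.47 in OXNAC33 and -4.58, -4.44, -4.04 and -4.44 in Control. Its difference was 0.94 (SE 0.17, 1.92-fold, limma, adjusted p = 0.536), and the locus with the next number, XLOC_013543, had -1.51 to -1.02 in OXNAC33 and -2.27 to -1.61 in Control. XLOC_011263, a bright locus, had 1.34, 1.83, 1.14 and 1.72 in OXNAC33 and 0.9998, 0.50, 0.90 and 0.19 in Control. XLOC_008373 averaged -0.80 ± 0.60 in OXNAC33 and -1.74 ± 0.32 in Control, and XLOC_004796 averaged -0.23 ± 0.31 in OXNAC33 and -1.13 ± 0.55 in Control (SD, n = 4 each). XLOC_012983 lay near the limit of detection, at -5.86 ± 0.49 in OXNAC33 and -6.78 ± 0.25 in Control, with 2 of 4 Control arrays well above background. For these 4 loci the differences were 0.86 to 0.94 with an adjusted p of 0.633 each by limma. Their neighbours in number XLOC_012982 (beside XLOC_012983) and XLOC_004797 (beside XLOC_004796) had differences of 0.57 and 0.24. Both neighbours overlapped between the groups. In all 6 loci the smallest of the differences within scan dates was that of date 2. With normexp background correction the difference was 0.06 for XLOC_012983 (SE 0.45), 0.44 for XLOC_013542 (SE 0.31) and 1.05 for XLOC_002024 (SE 0.57). It was 0.75 for XLOC_008373, 0.83 for XLOC_004796 and 0.82 for XLOC_011263.

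The loci with lower values in OXNAC33 were mostly dim. Of the 25 that passed the same rule, the 6 largest had Control means between -6.28 and -4.62. XLOC_007967 had -7.18, -8.56, -6.55 and -8.08 in OXNAC33 and -5.27, -5.83, -5.49 and -6.04 in Control, and the signal was well above background on 1 OXNAC33 array and on all 4 Control arrays. The fitted difference was -1.93 (SE 0.43, limma, adjusted p = 0.604), and it was -1.10 with values not well above background raised to the lowest marked level of the array. XLOC_002358 had -8.38, -8.06, -8.22 and -7.55 in OXNAC33, none of them well above background, and -6.01, -6.18, -6.47 and -6.48 in Control. The groups did not overlap, but the locus passed the filter of 4 arrays through Control alone, and its adjusted p (limma, 0.392) rests on OXNAC33 values below background. With its OXNAC33 values raised to the lowest marked level of their array, XLOC_002358 was 1.55-fold lower in OXNAC33, a log2 difference of -0.63. With normexp background correction the log2 difference was -0.44. XLOC_018520 averaged -7.17 ± 0.51 in OXNAC33 and -5.54 ± 0.42 in Control, and was well above background on 1 of 4 OXNAC33 arrays. With the floor used for XLOC_007967 its difference was -1.27. XLOC_019632 was above background on all 8 arrays, with -5.83, -5.56, -5.75 and -6.27 in OXNAC33 and -4.61, -4.21, -5.23 and -4.42 in Control (difference -1.24, SE 0.26, 2.36-fold, limma, adjusted p = 0.583). XLOC_010722 and XLOC_015121, each above background on 2 of 4 OXNAC33 arrays, had differences of -1.19 and -1.18, with adjusted p of 0.622 and 0.633 by limma, and of -1.04 and -0.85 with that floor.

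By the mark of the scanner software, signal in 1 whole group and in no plant of the other was found for Control alone. On 0 OXNAC33 arrays and all 4 Control arrays the signal was well above background at 6 XLOC loci (0.137%) and 10 VIT genes (0.0336%), and the reverse held for 0 XLOC loci and 0 VIT genes. The lower limit of the mark was lower on Control replicates 1 and 2 (-7.97 and -7.57) than on the OXNAC33 arrays (-7.17 to -6.78). Above the common level of -6.65 on all arrays, signal in Control alone was found at 8 XLOC loci (0.182%) and 13 VIT genes (0.0436%), and signal in OXNAC33 alone at 0 XLOC loci and 8 VIT genes (0.0268%). Loci marked in Control alone passed the filter of 4 arrays through Control only and so had to differ, and their adjusted p is no support for a difference. The brightest of the 6 in Control was XLOC_000607, with -7.93, -7.47, -7.21 and -8.84 in OXNAC33 and -5.72, -7.24, -3.49 and -4.26 in Control. The groups overlapped, since Control replicate 2 was marked at a level below that of the unmarked OXNAC33 replicate 3. That level was also below the lower limit of every OXNAC33 array. With OXNAC33 values raised to the lowest marked level of their array, the locus was 3.34-fold lower in OXNAC33. Without that floor its adjusted p was 0.633 by limma, and with normexp its log2 difference was -0.82. XLOC_001289 had -6.78, -6.74, -7.11 and -6.53 in OXNAC33 and -5.57, -5.39, -5.79 and -5.88 in Control, a fitted 2.19-fold (limma, adjusted p = 0.50). Its OXNAC33 values were not marked but lay above the lowest marked level of their arrays, so that the floor left the difference unchanged. XLOC_020581 had -7.47, -7.33, -7.25 and -7.33 in OXNAC33 and -6.01, -6.23, -6.65 and -6.13 in Control (limma, adjusted p = 0.50). With the floor it was 1.58-fold lower in OXNAC33, and with normexp its log2 difference was -0.40. XLOC_001289 and XLOC_020581 stood near the lowest level that counted as signal, without overlap between the groups. Of the 3 loci named here XLOC_020581 alone kept the pattern at the common level. Its Control replicate 3, at -6.65247, only just passed that level of -6.65275.

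XLOC_003210 was named because an earlier look at these arrays had shown it. Its levels were -3.08, -2.95, -2.93 and -3.02 in OXNAC33 and -2.37, -2.33, -2.33 and -2.37 in Control. The SD between plants was 0.07 in OXNAC33 and 0.02 in Control, and the groups did not overlap. The difference was -0.64 (SE 0.13, 1.56-fold, limma, adjusted p = 0.554), and within scan dates 1, 2 and 3 it was -0.66, -0.59 and -0.65. As the locus was chosen for this difference on these arrays, the values are a description.

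**Figure D4:**
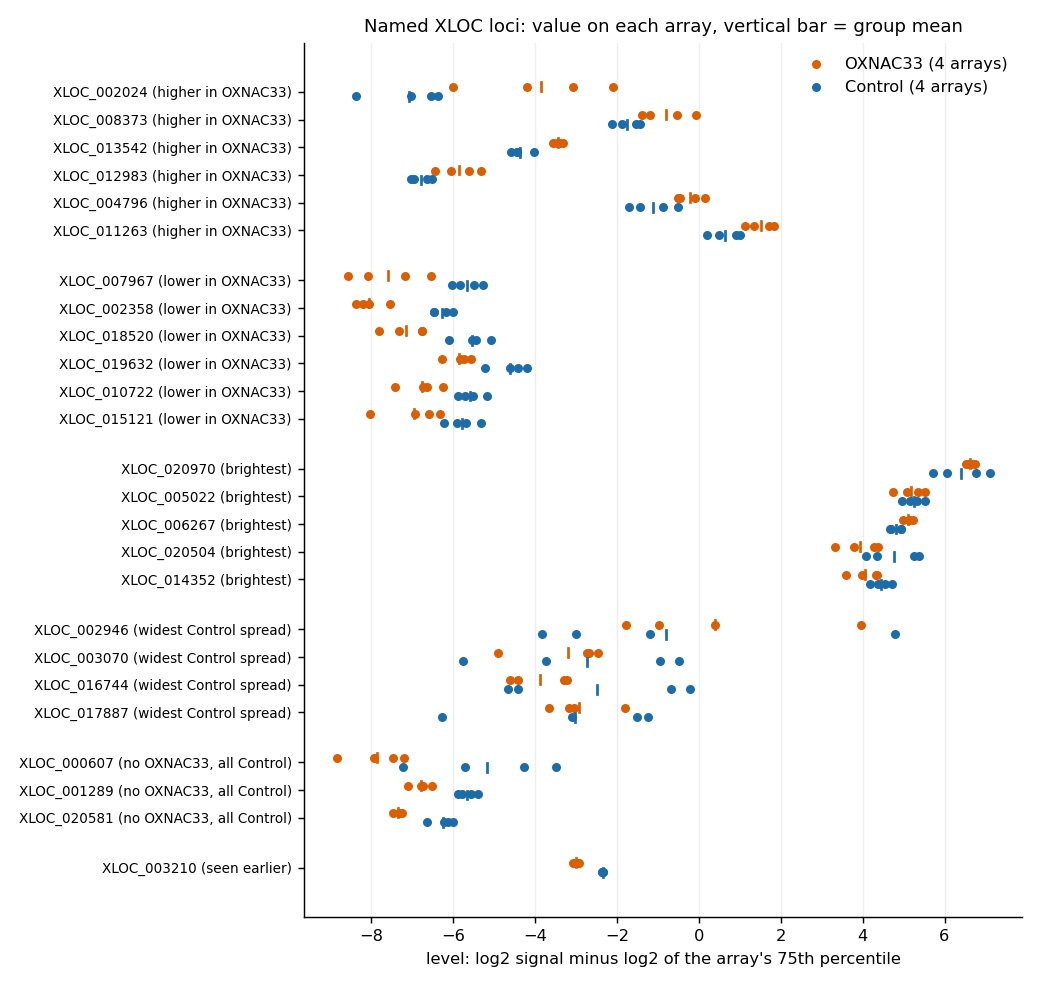
Level of each named XLOC locus (x axis, log2 relative to the array's 75th percentile) on the 4 OXNAC33 arrays (upper points) and the 4 Control arrays (lower points), with a vertical bar at each group mean. The 6 loci named for their difference in each direction are the largest among loci that were chosen for no overlap between the groups. The brightest loci lie between 3.33 and 7.11, and XLOC_002946 runs from -3.83 to 4.80.

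Loci with neighbouring numbers tended to vary together between plants. Deviations from the group means over the 8 arrays had a median Pearson r of 0.44 in the 469 pairs of tested loci whose numbers follow each other, and 19.4% of these pairs had r above 0.8. Over all pairs of tested XLOC loci the median r was 0.26, with 9.99% above 0.8. Loci next to each other in the list but 2 to 5 numbers apart had a median r of 0.26 (636 pairs), and those 6 or more apart had 0.24 (1115 pairs), so that the excess was seen for following numbers alone. All pairs share the 8 arrays, their scan dates and their normalization, loci recur in several pairs, and the values are a description of these arrays. Among the neighbours of named loci that were well above background on all 8 arrays, r was 0.91 for XLOC_002947 and 0.73 for XLOC_006268. It was 0.69 for XLOC_013543, 0.68 for XLOC_004797 and 0.07 for XLOC_012982. The other neighbours of named loci, well above background on at most 2 arrays, had r from -0.51 to 0.84. Whether following numbers mark neighbouring positions or probes with shared sequence was not tested.

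In 26 pairs of following numbers both loci were well above background on all arrays with an SD over 0.5, and the 3 with the highest r are given, chosen after their values were seen. XLOC_015254 and XLOC_015255 had an r of 0.99. XLOC_015254 read -4.27, -3.00, -1.56 and -2.73 in OXNAC33 replicates 1 to 4 and -3.18, -4.20, -1.91 and -2.34 in Control replicates 1 to 4, and XLOC_015255 read -3.59, -2.24, -0.41 and -1.75 in OXNAC33 and -2.22, -3.34, -0.86 and -0.91 in Control. Both were lowest in OXNAC33 replicate 1 and Control replicate 2 and highest in replicate 3 of each group. XLOC_004479 and XLOC_004480 (r 0.98) were both highest in OXNAC33 replicate 2 and Control replicate 1, where XLOC_004479 had -1.21 and -1.72 and XLOC_004480 had 1.06 and 1.11. XLOC_017656 and XLOC_017657 (r 0.97) were higher in all arrays of scan date 1 than in those of dates 2 and 3, with lows in Control replicate 3 of -5.80 and -4.03. In none of the 3 pairs were the groups apart.

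**Figure D5:**
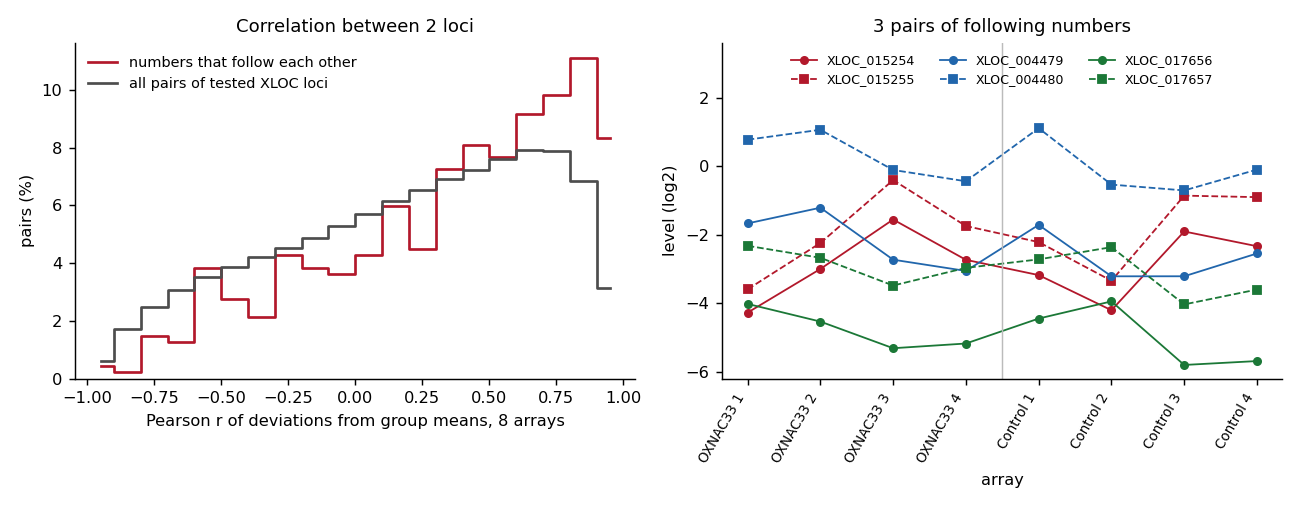
Left, percentage of pairs (y axis) by Pearson r of the deviations from group means over 8 arrays (x axis, bins of 0.1) for the 469 pairs of tested XLOC loci with following numbers and for all pairs of tested XLOC loci. Right, level (y axis, log2) of 3 such pairs on each array, where the 2 loci of a pair, drawn in 1 colour, run in parallel at different levels.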

How the data were processed

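The authors deposited for each of the 8 arrays a linear intensity per spot (1 colour, Cy3), which per the file headers Agilent Feature Extraction 10.5.1.1 had background-subtracted, spatially detrended and, where small, replaced by an estimate above 0. The median intensity of spot and background, and other marks of 0 or 1 per spot, were deposited too. A series table of intensity held 40.0% of the XLOC loci and 76.5% of the VIT genes. The 10 outlying XLOC spots of 140 in all were left out, and 0 spots were saturated. Fits used limma 3.58.1 (R 4.3.3) with Benjamini-Hochberg adjustment over 26579 probes, checked on simulated data, with group as the only term and two-sided tests. Shares and medians per array were compared by exact permutation (scipy 1.17.1, Python 3.11.15), XLOC and VIT being paired within an array. Where a floor is named, unmarked values below the lowest marked level of their array were set to that level. Figures used matplotlib 3.10.9.

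Groups and replicate numbers came from the sample titles. Same-numbered arrays deviated together (r of 0.49, 0.25, 0.50 and 0.10 over all probes tested, from replicate 1 to 4). They also shared a scan date, so that a pairing by number and scan date cannot be told apart here. The numbers were taken to pair the arrays only in the alternatives with a replicate block. The number of arrays limits the precision of every value. Named loci were, by rule, the 6 largest differences in each direction among loci past the methods' threshold without overlap and with signal in the whole higher group, the 5 brightest, the 4 with the widest Control spread, the 3 brightest with signal in Control alone, and XLOC_003210. The members, lists and rule were chosen with earlier results of these data known. XLOC and VIT identifiers matched 0 entries of the reference gene table used here.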

Additional observations from a re-analysis of the deposited data

Results flagged for a closer look

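Of 60 groups of 4 arrays examined (the 25 named loci and the shares and medians per array in each group), 1 held an array far from its group. XLOC_003070 in OXNAC33 replicate 3 read -4.91, while the other 3 OXNAC33 arrays read -2.74 to -2.47, and the gap made up 0.888 of the range of the group (above Dixon's critical value for 4 samples). About 3 such groups (1 in 20) are expected by chance. Control replicate 3, scanned on the same date, was the lowest Control array at this locus, at -5.76.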

How the results depend on the processing

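The lower share and the lower median of the XLOC loci against the VIT genes kept direction and call in all alternatives run (11 for the share, 13 for the median). Leaving out 1 array gave -31.3 to -29.3 points for the share and -4.65 to -4.56 for the median. The larger deviation between plants was no longer past the threshold with normexp (0.10) or quantile normalization (0.0168), and leaving out 1 array gave 0.047 to 0.062. The difference in XLOC share between OXNAC33 and Control ran from -10.6 to -3.14 points with 1 array left out and was 3.94 points without Control replicates 1 and 2 together, an alternative added after seeing the data, as were scan dates 2 and 3 alone and the common level.

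Adjusted calls of XLOC loci stayed at 0 in all 21 alternatives. The 68 higher loci at the methods' threshold (all probes 644) became 272 with array weights (all probes 2344) and 10 with normexp (all probes 293). They became 111 with quantile normalization (all probes 802) and 109 with scan date as a block (all probes 1035). With slide as a random block they became 121 (all probes 686), and on scan dates 2 and 3 alone 38 (all probes 375). Without Control replicates 1 and 2 they became 141 (all probes 898). With 1 array left out they became 28 to 169, beside 330 to 1280 of all probes. The 53 lower loci became 28 with probes seen on all 8 arrays (1.70%, background 2.90%) and 105 with array weights (4.71%, background 7.25%). They became 157 with no filter on dim probes (3.57%, background 3.56%) and 27 with normexp (1.21%, background 2.42%). With the replicate block they became 90 (4.04%, background 4.96%), and with scan date as a block 92 (4.13%, background 5.16%). In the value table they became 34 (1.94%, background 2.93%). With 1 array left out they became 39 to 122, beside 525 to 1358 of all probes. Array weights gave OXNAC33 replicate 2 a weight of 5.10, against 0.43 to 1.60 for the others. The median XLOC difference turned to -0.12 with normexp and ran from 0.002 to 0.19 with 1 array left out. The cause was not tested for any of these. The replicate block changed no other call.

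Of the 509 alternatives run on the named loci, 487 kept direction and call and 22 changed direction, all at loci whose groups overlapped. XLOC_020970 read -0.23 on scan dates 2 and 3 alone, -0.093 with slide as a random block, -0.30 without Control replicates 1 and 2, and -0.0097 to 0.46 with 1 array left out. XLOC_005022 read 0.14 with array weights, 0.0173 without Control replicates 1 and 2, and -0.19 to 0.0683 with 1 array left out. XLOC_003070 read 1.06 on scan dates 2 and 3 alone, 0.42 with slide as a random block, 1.55 without Control replicates 1 and 2, and -1.47 to 0.28 with 1 array left out. XLOC_016744 read 0.0193 on scan dates 2 and 3 alone and 0.65 without Control replicates 1 and 2. XLOC_017887 read -0.10 with normexp, -0.43 on scan dates 2 and 3 alone, -0.82 with slide as a random block, -0.61 without Control replicates 1 and 2, and -0.97 to 0.71 with 1 array left out. Signal limits the dim loci, since 27.5% of the XLOC loci were well above background on 0 arrays and their values rest on estimates by the scanner software.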
